A study of Mus musculus with 2 samples.

Results

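The carbonic anhydrases form a family of zinc enzymes, represented here by 10 mouse genes (Car1, Car2, Car3, Car4, Car5b, Car8, Car9, Car12, Car13 and Car14) taken by symbol from the platform annotation, out of 18193 genes named on the array. Together they have 21 probe sets, each a group of short probes that reports 1 signal. CMT-93-PM1 cells were compared with the CMT-93 cells from which they descend. CMT-93 is a mouse rectal carcinoma line. To obtain CMT-93-PM1, it was injected into tail veins of female C57BL/6 mice aged 6 weeks, and tumour tissue taken from their lungs 8 weeks later was put into primary culture. The sources used here do not say how many mice or tumours gave rise to CMT-93-PM1. Both lines were kept in culture medium with 10% fetal bovine serum, and 6 µg of RNA from each was put on an Affymetrix array. There was 1 array of CMT-93-PM1 and 1 of CMT-93, so no value has a replicate error and no test between the lines was possible. Line, culture, labelling and array are confounded and cannot be told apart.

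Carbonic anhydrases convert carbon dioxide and water to bicarbonate and a proton, and back. In the large intestine they supply the ions that absorptive cells exchange for chloride and sodium, and in tumours the forms that face outward take part in setting the pH outside the cell. The family divides by place. Car1, Car2, Car3 and Car13 are cytosolic, Car5b is mitochondrial, Car4 is tethered to the outer face of the membrane by a lipid anchor, and Car9, Car12 and Car14 cross the membrane with the catalytic domain outside. Car8 lacks catalytic activity and binds the inositol trisphosphate receptor Itpr1.

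Values are log2 signals, and a log2 ratio is CMT-93-PM1 minus CMT-93. Signals of different probe sets are not comparable as levels, so genes are set side by side by their differences, and a sum over a marker list is set only between the lines. A signal at or below the 40th percentile of its array (4.59 for CMT-93-PM1 and 4.69 for CMT-93) was treated as being at the floor, since no detection calls were used. A probe set with neither signal above its floor counts as not measured, and one with a single signal above it gives only a bound. Of the 21 probe sets, 9 were above the floor on both arrays, 1 on the CMT-93 array only, and 11 on neither. Each gene is represented by its brightest probe set on average, and on that basis 6 of the 10 genes were measured. Of all 18193 named genes, 13332 were measured by the same rule. Of the 34945 probe sets with 1 symbol, 24067 were measured, beside 10 of the 21 here. Over all 45037 probe sets, which are no replicates, Pearson's r between the arrays was 0.980. Of 10 colorectal epithelial markers, 7 were measured on these arrays, 5 with a ratio above 0 and 2 below. Among them were Cdh1 (12.52 in CMT-93-PM1 and 12.66 in CMT-93) and Krt19 (12.98 in CMT-93-PM1, 12.72 in CMT-93). Krt18, Epcam and Krt8 were 1.89-fold, 1.79-fold and 1.47-fold higher in CMT-93-PM1 by their brightest probe sets. Cdx2 read 5.08 in CMT-93-PM1 and 5.24 in CMT-93, near the floor. Krt20, Vil1 and Lgals4 were at the floor in both lines.

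Car2 was 4.86-fold lower in CMT-93-PM1, and no other measured carbonic anhydrase differed by 2-fold. Without a floor, the dim signals of Car8 also passed that limit, at -1.39. Thus 1 of 6 measured members was at least 2-fold lower, against 2.55% of the 13332 measured genes, and 0 of 6 were at least 2-fold higher, against 4.42% of them. At 1.5-fold, Car3 joined Car2 on the lower side (2 of 6, against 6.95% of measured genes) and Car9 was on the higher side (1 of 6, against 11.5%). The median log2 ratio of the 6 was -0.21, beside 0.00 for all measured genes, with 4 ratios below 0 and 2 above.

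**Figure D1:**
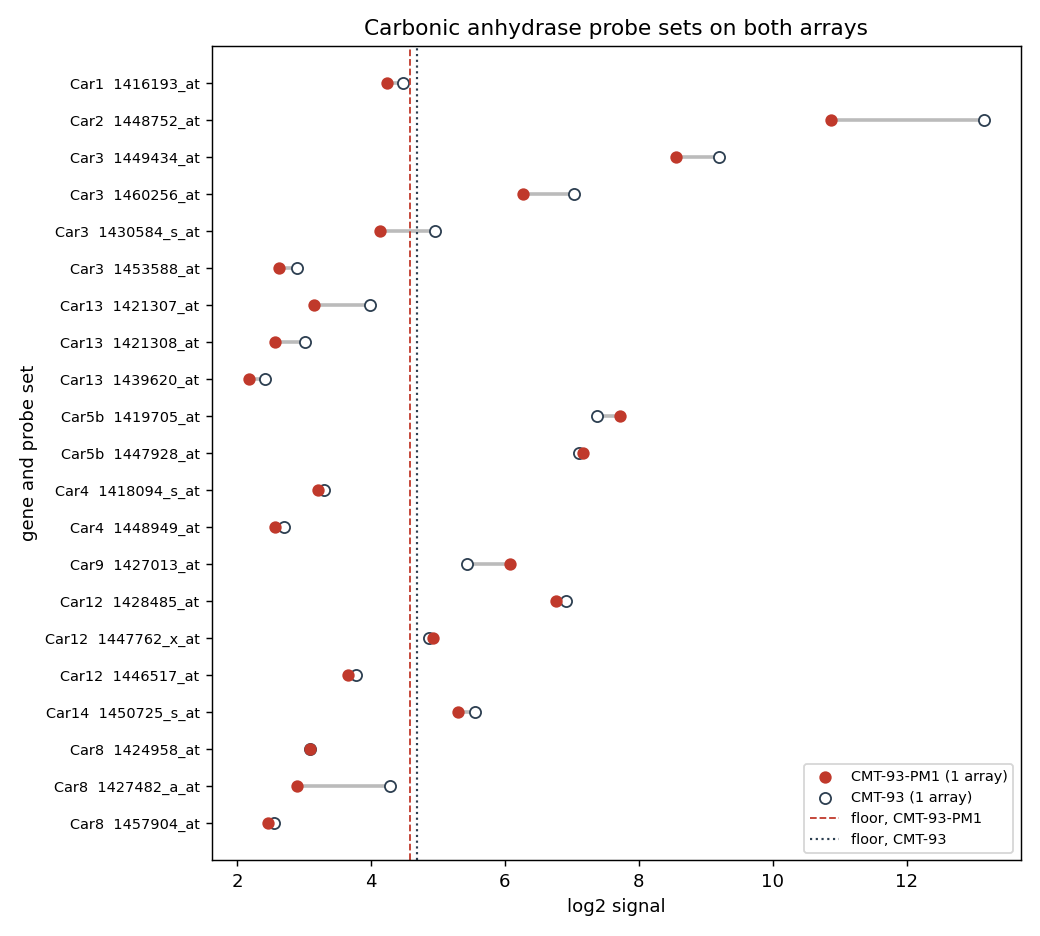
Log2 signal of all 21 carbonic anhydrase probe sets (rows, by gene and place in the cell) in CMT-93-PM1 (filled red) and CMT-93 (open), 1 array each, with the floor of each array as a vertical line. A grey bar joins the 2 signals of a probe set, and the longest is that of Car2 (10.87 in CMT-93-PM1, 13.15 in CMT-93); for Car8 probe set 1424958_at the points coincide at 3.09.

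Among the cytosolic enzymes, Car2 is the fast and widely expressed form, and a main one of colonic epithelium. Its probe set (1448752_at) read 10.87 in CMT-93-PM1 and 13.15 in CMT-93, a log2 ratio of -2.28. Car2 was therefore well above the floor in both lines, and lower in the lung-recovered one. With bulk RNA, fewer cells that express a gene and less RNA per cell cannot be told apart. Ordered by ratio from the lowest, Car2 was at rank 62 of the 13332 measured genes, and 0.458% of them had a lower ratio. The measured genes were also divided by mean signal into 10 bins of equal size. In the brightest bin, which holds Car2, the SD of the log2 ratio was 0.41, and 1.27% of its 1334 genes were at least 2-fold lower. Only the transferrin receptor gene Tfrc (9.36 in CMT-93-PM1 and 12.68 in CMT-93, 9.99-fold lower), named after its value was seen, had a ratio larger in size than that of Car2 in this bin. Car2 has 1 probe set, so no second probe set could be set against it.

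Car3, a cytosolic form with low hydratase activity that is abundant in muscle and fat, was lower by a smaller amount and by several probe sets. Probe set 1449434_at read 8.55 in CMT-93-PM1 and 9.20 in CMT-93, or 1.57-fold lower. Probe set 1460256_at read 6.27 in CMT-93-PM1 and 7.03 in CMT-93, or 1.69-fold lower. Probe set 1430584_s_at read 4.14 in CMT-93-PM1 and 4.96 in CMT-93, at least 1.29-fold lower, and the remaining one (1453588_at, 2.63 in CMT-93-PM1, 2.89 in CMT-93) was at the floor in both lines. All 3 measured probe sets thus pointed the same way, and the ratios of the 2 above the floor on both arrays had an SD of 0.08. Over 5782 genes with several such probe sets the median SD was 0.17, a technical spread within the arrays. Of the genes in the signal bin that holds Car3, 16.7% had a ratio of larger size.

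Because Car3 is typical of muscle and fat, markers of those tissues were read beside it. Of 8 muscle markers 3 were measured and 0 differed by 2-fold, against 4.42% of measured genes higher and 2.55% lower. The brightest, the filament gene Des, read 6.23 in CMT-93-PM1 and 6.78 in CMT-93, or 1.46-fold lower. Acta1 was 1.13-fold lower and Ckm 1.19-fold higher. The summed signal of all 8 was 8.03 log2 in CMT-93-PM1 and 8.19 in CMT-93. Of 5 adipocyte markers on the array 3 were measured and 0 differed by 2-fold, beside the same shares of all measured genes. The summed signal of all 5 was 9.84 log2 in CMT-93-PM1 and 9.50 in CMT-93. The fatty acid carrier gene Fabp4 read 9.67 in CMT-93-PM1 and 9.23 in CMT-93 by its brightest probe set, a ratio of 0.44. Dimmer measured Fabp4 probe sets had ratios of 0.19 and -0.17, so no common direction was seen. The other measured adipocyte markers were lower in CMT-93-PM1, Cidec by at least 1.61-fold and Retn by 1.13-fold. The fat hormone gene Adipoq was at the floor in both lines. The part of either tissue in the Car3 signal was not tested.

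Car1 and Car13, the remaining cytosolic forms, were not measured. Car1, an enzyme of red cells and of the colonic surface epithelium, read 4.24 in CMT-93-PM1 and 4.48 in CMT-93 by its 1 probe set. Car13, whose product is also found in the gut, had 3 probe sets, the brightest of which read 3.15 in CMT-93-PM1 and 3.99 in CMT-93. Car1 and Car2 are both abundant in red cells, and of 5 erythroid markers on the array only Klf1 (4.71 in CMT-93-PM1, 4.91 in CMT-93) was above the floor. The summed signal of the 5 was 6.52 log2 in CMT-93-PM1 and 6.64 in CMT-93. The globin gene Hba-a1 read 4.31 in CMT-93-PM1 and 4.32 in CMT-93, at the floor of both arrays.

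The 4 cytosolic genes lie side by side on chromosome 3, in the order Car13, Car1, Car3, Car2, with no other protein-coding gene between them in the gene table of assembly GRCm38.p6. Both measured genes of the cluster were lower in CMT-93-PM1. Of the 20 nearest genes with a probe set, 10 on each side, 14 were measured and 0 differed by 2-fold in either direction. Of all measured genes, 2.55% were at least 2-fold lower and 4.42% higher, so a count of 0 among 14 is near that share. Their median log2 ratio was -0.04, and they ran from -0.83 for the cell cycle transcription factor gene E2f5 (9.11 in CMT-93-PM1 and 9.94 in CMT-93) to 0.66 for the phosphodiesterase gene Pde7a (9.45 in CMT-93-PM1, 8.79 in CMT-93). The closest measured neighbour on the side of Car13, Rbis, read 11.79 in CMT-93-PM1 and 11.76 in CMT-93. On the side of Car2 the closest measured one, the RNA-binding protein gene Ythdf3, read 10.52 in CMT-93-PM1 and 10.81 in CMT-93. The difference at Car2 was thus larger than at any of these 14 neighbours.

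**Figure D2:**
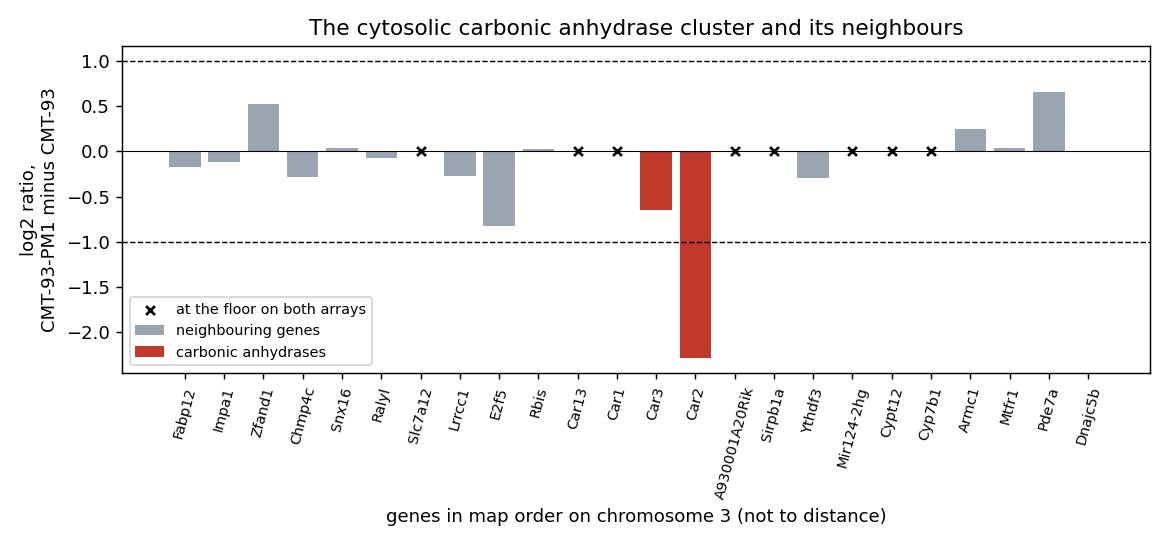
Log2 ratio, CMT-93-PM1 minus CMT-93 (vertical axis), of the cytosolic carbonic anhydrase genes (red) and the 10 genes on each side (grey) in map order on chromosome 3, 1 array per line. Crosses mark genes at the floor in both lines, dashed lines the 2-fold limits, and Car2 at -2.28 is the one bar past them; Dnajc5b has a ratio of 0.

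Car5b, the mitochondrial form, provides bicarbonate inside mitochondria for biosynthesis. Probe set 1419705_at read 7.72 in CMT-93-PM1 and 7.38 in CMT-93, a log2 ratio of 0.34. Its other probe set (1447928_at) read 7.16 in CMT-93-PM1 and 7.10 in CMT-93, a ratio of 0.06. The probe sets thus put Car5b between 1.04-fold and 1.27-fold higher, and 46.7% of the genes in its signal bin had a ratio of larger size.

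Of the 3 measured forms that face outward, Car9 had the ratio of largest size. Car9 is a classic target of the hypoxia-inducible factor HIF and a marker of oxygen-poor tumour regions, where it helps to export acid. It read 6.07 in CMT-93-PM1 and 5.43 in CMT-93 by its 1 probe set (1427013_at), 1.56-fold higher. This signal is close to the floor, and 18.1% of the genes in its signal bin had a ratio of larger size. Car12, a related enzyme of epithelia and tumours, read 6.76 in CMT-93-PM1 and 6.92 in CMT-93 by probe set 1428485_at, a ratio of -0.16. A dimmer probe set of Car12 (1447762_x_at) read 4.93 in CMT-93-PM1 and 4.87 in CMT-93, a ratio of 0.06, and the third (1446517_at, 3.66 in CMT-93-PM1, 3.78 in CMT-93) was at the floor, so no common direction was seen. Car14 read 5.30 in CMT-93-PM1 and 5.55 in CMT-93, a ratio of -0.25 with 44.0% of its signal bin at a larger size. Its 1 probe set carries the suffix _s, which marks probes shared by several transcripts.

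RefSeq promoter windows (GRCm38.p6) were given for 5 of the 10 genes, namely Car4, Car5b, Car9, Car12 and Car14. They were searched, in the 250 bases before the start that the table uses, for ACGTG and GCGTG, core letters of the element to which HIF binds, on both strands. The windows of Car9, Car14 and Car5b held at least 1 and are shown for that reason, while those of Car4 and Car12 held neither. Capitals mark the matches, and sequences run 5′ to 3′ on the strand of the gene.
Car9, chr4:43506776-43507025, + strand: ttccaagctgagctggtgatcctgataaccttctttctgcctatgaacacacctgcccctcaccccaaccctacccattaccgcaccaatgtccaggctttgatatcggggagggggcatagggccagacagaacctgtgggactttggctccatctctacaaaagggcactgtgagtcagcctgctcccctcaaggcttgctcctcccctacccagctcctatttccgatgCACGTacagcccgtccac
Car14, chr3:95904686-95904935, - strand: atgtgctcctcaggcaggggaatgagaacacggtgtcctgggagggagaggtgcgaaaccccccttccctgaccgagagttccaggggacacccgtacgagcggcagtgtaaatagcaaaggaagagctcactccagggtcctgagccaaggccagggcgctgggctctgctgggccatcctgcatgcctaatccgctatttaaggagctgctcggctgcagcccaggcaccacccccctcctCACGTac
Car5b, chrX:164028011-164028260, - strand: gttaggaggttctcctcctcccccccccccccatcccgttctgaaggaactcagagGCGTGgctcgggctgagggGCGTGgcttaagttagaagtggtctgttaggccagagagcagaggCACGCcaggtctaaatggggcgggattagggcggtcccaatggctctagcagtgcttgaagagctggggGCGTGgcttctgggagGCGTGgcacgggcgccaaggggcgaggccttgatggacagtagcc
Car9 held 1 ACGTG, read on the opposite strand, at 18 to 14 bases before the start. Car14 held 1 ACGTG on the opposite strand at 7 to 3 bases before it. Car5b held 5 GCGTG, 4 of them on the strand of the gene. Of 32851 windows of the same length, 16.6% held ACGTG, 28.2% GCGTG and 38.6% either, so matches of this length are common. Such a match is a description of letters, not of binding, and the ratios of the 3 genes (0.64, -0.25 and 0.34) did not share a sign.

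Car9 was read beside other genes of the HIF response. Of 21 measured HIF regulators and targets, 3 were at least 2-fold lower in CMT-93-PM1 and 0 at least 2-fold higher, against 2.55% and 4.42% of measured genes. Of their ratios 16 were below 0 and 4 above, with a median of -0.19, beside 6499 below and 6565 above over all measured genes. The lowest were Ankrd37 (4.85 in CMT-93-PM1 and 6.24 in CMT-93, near the floor, and at least 1.06-fold lower under a floor at the 60th percentile) and the growth inhibitor gene Ddit4 (9.71 in CMT-93-PM1, 10.92 in CMT-93, 2.31-fold lower). The glycolytic gene Pgk1 read 13.44 in CMT-93-PM1 and 13.63 in CMT-93. The gene of the oxygen-regulated factor itself, Hif1a, read 12.36 in CMT-93-PM1 and 11.97 in CMT-93. Car9, at 0.64, lay above the highest ratio of this list, which was 0.44. The counts of this list mix regulators with targets. Egln1, Hif1an, P4ha1 and Adm, counted below 0, reached 0.245, 0.04, 0.03 and 0.15 under other scalings, floors or choices of probe set. The list median ran from -0.225 to -0.09 under them.

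Car4, which works at the luminal surface of colonocytes and in lung capillaries, was not measured. Its probe sets read 3.21 in CMT-93-PM1 and 3.30 in CMT-93 (1418094_s_at) and 2.57 in CMT-93-PM1 and 2.70 in CMT-93 (1448949_at). Of 11 endothelial markers, 5 were measured, and the summed signal of all 11 was 10.26 log2 in CMT-93-PM1 and 10.06 in CMT-93. Past 2-fold, 1 was higher and 1 lower, against 4.42% and 2.55% of measured genes. Cdh5 was higher in CMT-93-PM1, by at least 24.4-fold and, in a dimmer probe set, 1.78-fold, and Tek was at least 15.8-fold lower. A floor at the 60th percentile brought the bounds of Cdh5 and Tek to 8.69-fold and 5.35-fold. By the median or the mean over its probe sets, Cdh5 was at least 6.59-fold higher. The brightest endothelial marker, the adhesion gene Esam, read 8.70 in CMT-93-PM1 and 8.93 in CMT-93, or 1.17-fold lower. The endothelial adhesion gene Pecam1 (3.44 in CMT-93-PM1, 3.57 in CMT-93) was at the floor in both lines. Car8, the acatalytic form, was not measured by any of its 3 probe sets, which read between 2.47 and 3.09 in CMT-93-PM1 and between 2.55 and 4.28 in CMT-93. No probe set was annotated to its partner gene Itpr1 alone, so that gene gave no value. The related receptor genes Itpr2 (8.05 in CMT-93-PM1, 8.42 in CMT-93) and Itpr3 (8.96 in CMT-93-PM1, 8.85 in CMT-93) were within 2-fold.

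**Figure D3:**
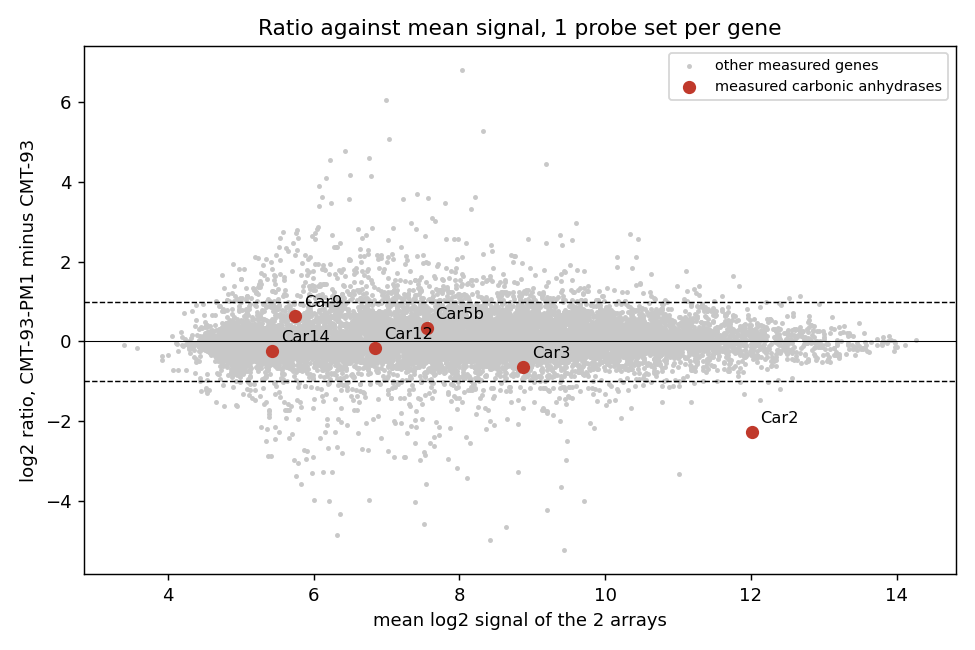
Log2 ratio, CMT-93-PM1 minus CMT-93 (vertical axis), against the mean log2 signal of both arrays (horizontal axis) for 13332 measured genes (grey) and the 6 measured carbonic anhydrases (red), 1 probe set per gene. Car2 at -2.28 lies apart from the genes of its signal, while the other 5 lie inside the 2-fold limits drawn as dashed lines.

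The 6 further carbonic anhydrase genes gave no 2-fold difference. Of these, 3 were measured, so 0 of 3 stands against 4.42% of measured genes at least 2-fold higher and 2.55% lower. Car7, a cytosolic form best known from neurons, was higher in CMT-93-PM1 by all 3 probe sets, at 7.40 in CMT-93-PM1 against 6.72 in CMT-93, 5.86 in CMT-93-PM1 against 5.41 in CMT-93 and 6.20 in CMT-93-PM1 against 6.09 in CMT-93, or from 1.08-fold to 1.60-fold. Car15, a membrane-anchored form, read 6.09 in CMT-93-PM1 and 6.24 in CMT-93, and the acatalytic relative Car11 read 4.86 in CMT-93-PM1 and 5.12 in CMT-93. Car5a, Car6 and Car10 were at the floor in both lines.

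Among the transporters that move bicarbonate, 8 of 18 genes on the array were measured. Past 2-fold, 1 was higher, against 4.42% of measured genes, and 0 were lower, against 2.55%, and the median log2 ratio was 0.06. The higher one was Slc4a4, the sodium bicarbonate cotransporter of the basolateral membrane. It read 8.88 in CMT-93-PM1 and 7.47 in CMT-93 by its brightest probe set, 2.66-fold higher. The 3 other measured Slc4a4 probe sets were 3.10-fold, 1.96-fold and 1.87-fold higher, so all 4 pointed the same way, and the remaining one (4.59 in CMT-93-PM1, 4.62 in CMT-93) was at the floor. Slc4a2, a chloride bicarbonate exchanger of most epithelia, read 9.26 in CMT-93-PM1 and 9.14 in CMT-93. The exchanger gene Slc26a3, the main route of bicarbonate into the colon lumen, was at the floor in both lines by all 4 probe sets.

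Most measured genes that move protons or lactate were within 2-fold by their brightest probe set. Of all measured genes only 4.42% were at least 2-fold higher and 2.55% lower, so a count of 0 does not set a small list apart. By brightest probe set, 0 of 6 measured sodium-proton exchangers and regulators differed by 2-fold, with a median of 0.11. The scaffold gene Slc9a3r1 read 11.89 in CMT-93-PM1 and 11.56 in CMT-93. The related scaffold gene Slc9a3r2, named after its values were seen, had a ratio of 0.06 in the probe set that represents it. A dimmer one read 5.84 in CMT-93-PM1 and 4.49 in CMT-93, at least 2.22-fold higher, and another was 1.54-fold higher. The remaining Slc9a3r2 probe sets were 1.03-fold, 1.06-fold and at least 1.17-fold higher. Slc9a9, a sodium-proton exchanger of endosomes, gave only bounds, in opposite directions. Its brightest probe set read 4.92 in CMT-93-PM1 and 4.33 in CMT-93, at least 1.17-fold higher. Another Slc9a9 probe set read 4.09 in CMT-93-PM1 and 4.93 in CMT-93, at least 1.27-fold lower. Of 4 measured monocarboxylate transporter and chaperone genes, 0 differed by 2-fold, beside the same shares of all measured genes, with a median of -0.02. The lactate carrier gene Slc16a1 read 12.07 in CMT-93-PM1 and 12.16 in CMT-93. Of 14 measured subunits of the vacuolar proton pump, 0 were higher and 1 lower past 2-fold, against 4.42% and 2.55% of measured genes, with a median of 0.06. That subunit was Atp6v0a4, found in acid-secreting epithelia, at 6.70 in CMT-93-PM1 and 7.71 in CMT-93 or 2.01-fold lower, and within 2-fold (-0.91) after scaling to equal medians. The pump subunit gene Atp6v1c1 read 12.09 in CMT-93-PM1 and 12.48 in CMT-93.

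Of 18 absorptive colonocyte genes, the cells in which Car1, Car2 and Car4 are typically expressed, 9 were measured. Past 2-fold, 1 was higher and 1 lower, against 4.42% and 2.55% of measured genes. The median was -0.08, and -0.76 under a floor at the 60th percentile, where 3 were measured. The water channel gene Aqp8 read 5.45 in CMT-93-PM1 and 7.76 in CMT-93, 4.96-fold lower, or at least 3.05-fold under a floor at the 60th percentile. The gut peptide gene Guca2a read 8.55 in CMT-93-PM1 and 6.59 in CMT-93, 3.89-fold higher. The cell adhesion gene Ceacam1, named after its values were seen, was 1.69-fold lower by its brightest probe set and from 2.28-fold to 3.76-fold lower by its 5 other probe sets with both signals above the floor, of which 4 carry the suffix _x and 1 the suffix _s. By brightest probe set, 2 genes of this list were thus past 2-fold, in opposite directions, and by the median or the mean over probe sets 2 were lower. Car1, Car4 and Slc26a3 gave no measured signal.

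**Figure D4:**
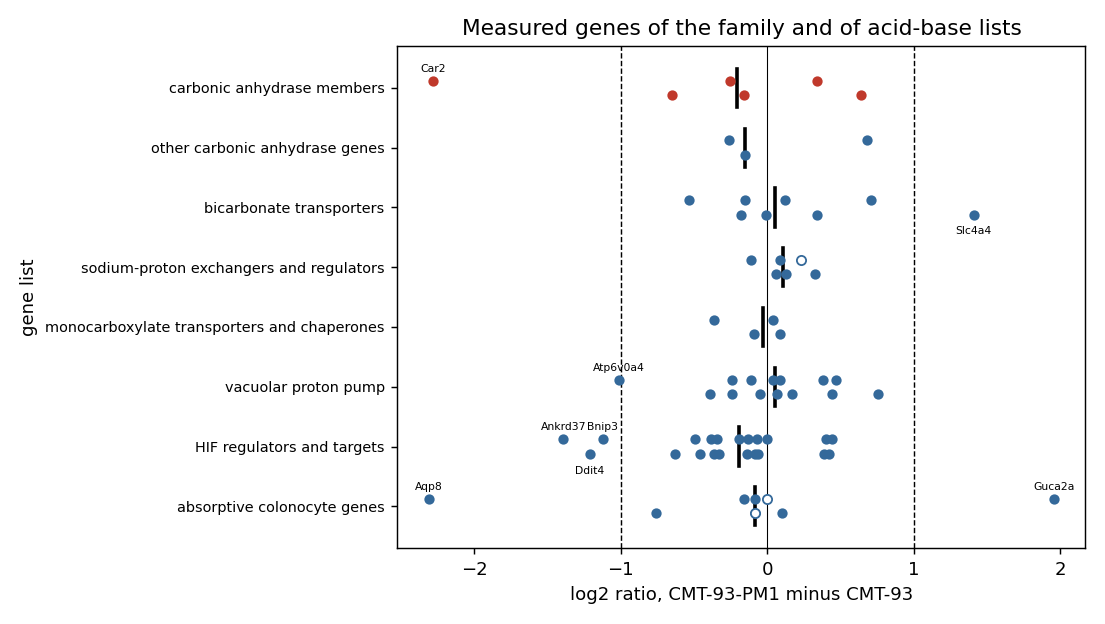
Log2 ratio, CMT-93-PM1 minus CMT-93 (horizontal axis), of the measured genes of 8 lists (rows), with black bars at the list medians, dashed lines at 2-fold and open points for genes at the floor on 1 array. Genes past 2-fold are named, among them Car2 (-2.28), Aqp8 (-2.31), Slc4a4 (1.41) and Guca2a (1.96).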

How the data were processed

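Per the labels' protocols, biotin-labelled cRNA from total RNA of 1 culture of each line was measured on Affymetrix arrays. The authors deposited a table of log2 signals with 2 decimals for 45037 probe sets, whose log base was inferred from the values (powers of 2 reach 19893 and 19484 for CMT-93-PM1 and CMT-93, as on a scanner). MAS5 appears, without a role, in the submitters' processing notes. How the signals of the arrays were scaled by the authors is not stated there. The deposited log2 values were used without rescaling, since the arrays' quantiles differed by at most 0.11. A platform annotation gave 1 symbol to 34945 probe sets, updated by Entrez identifier to GRCm38.p6 (34741 matched); 932 had several symbols and none of these listed a carbonic anhydrase. Each gene is represented by its probe set of highest mean signal. Differences were counted at 2-fold; neighbours were the nearest genes with a probe set. No test was made, as each group has 1 array, and the number of arrays limits the precision. The genes named are all members, up to 2 of each list past 2-fold per direction and its brightest gene, markers past 2-fold or brightest, and the 3 nearest patterns of the 2 members with the largest ratios, which are not given because that distance sets signals of different probe sets against each other. Other genes named beside these, such as Hif1a, Adipoq, Pecam1, Hba-a1, Rbis, Ythdf3, Itpr2, Itpr3 and Slc9a9, were chosen outside this rule after their values were seen. Members and lists were chosen with earlier results of these data known. Protein sequences were not used here. Counting was tested on simulated data. Python 3.11.15, pandas 2.3.3, numpy 2.4.6 and statsmodels 0.14.6 were used. The alternatives were 3 scalings (equal medians, quantile normalization, lowess with span 0.3), floors at the 20th and 60th percentile or none, the median or mean over probe sets, omission of probe sets with suffix _s, _x or _a, and limits of 1.5-fold and 3-fold.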

Additional observations from a re-analysis of the deposited data

How the results depend on the processing

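Over the 9 alternatives of scaling, floor and probe set, the log2 ratio of Car2 ran from -2.31 to -2.18 and that of Car3 from -0.74 to -0.55. Car5b ran from 0.20 to 0.44 and Car12 from -0.21 to -0.05. Car9 ran from 0.64 to 0.74 in 8 alternatives and Car14 from -0.25 to -0.15 in 7, since a floor at the 60th percentile left neither measured and Car14 has only a suffixed probe set. No ratio of these 6 genes changed sign under these settings. The count of members at least 2-fold lower was 1, and it was 2 without a floor, where the dim Car8 (-1.39) was counted, and 2 at a limit of 1.5-fold. The count at least 2-fold higher was 0, and 1 at a limit of 1.5-fold. The median of the members was -0.41 with the floor at the 60th percentile, where 4 of them were measured, against -0.21 as reported. No paired analysis was possible because each line has 1 array and no test was made. A single array per line limits every value, and the floor left Car1, Car4, Car8 and Car13 unmeasured.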

Other observations

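The 11 carbonic anhydrase probe sets at the floor in both lines entered none of the counts made with the floor. Without the floor, 10 of them read lower in CMT-93-PM1, 1 equal and 0 higher, with a median difference of -0.24 log2. The median difference of all 16927 probe sets at the floor in both lines was -0.07, and the floor itself was lower by 0.10 in CMT-93-PM1 (difference of -0.10). Reading lower was thus the more common direction among these 16927 as well, and their exact share was not counted. The 11 probe sets are also not independent, since Car8 and Car13 each supply 3 of them. The lowest difference was that of Car8 probe set 1427482_a_at, which read 2.89 in CMT-93-PM1 and 4.28 in CMT-93, while the other Car8 probe sets read 3.09 in both lines and 2.47 in CMT-93-PM1 against 2.55 in CMT-93. Of all probe sets at the floor in both lines, 0.396% read at least 2-fold lower. The Car13 probe sets read 3.15 in CMT-93-PM1 against 3.99 in CMT-93, 2.57 in CMT-93-PM1 against 3.01 in CMT-93 and 2.18 in CMT-93-PM1 against 2.42 in CMT-93.

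In the remaining marker lists, 8 of 10 lung alveolar epithelial markers were measured, 7 with a ratio below 0 and 1 above, and a median of -0.515. Past 2-fold, 1 was lower and 0 higher, against 2.55% and 4.42% of measured genes. Napsa read 5.69 in CMT-93-PM1 and 7.74 in CMT-93 (4.14-fold lower), and Aqp5 10.01 in CMT-93-PM1 and 10.68 in CMT-93. Both were thus above the floor in the parental tumour line itself. Of 9 leukocyte markers 6 were measured. Past 2-fold, 2 were higher and 1 lower, against 4.42% and 2.55% of measured genes. Cd68 (7.05 in CMT-93-PM1, 5.23 in CMT-93) and Csf1r (7.54 in CMT-93-PM1, 6.42 in CMT-93) were higher, and Cd14 (9.14 in CMT-93-PM1, 10.63 in CMT-93) was lower. Lyz2, Cd3e and Cd79a were within 2-fold. The general leukocyte marker Ptprc and the macrophage markers Itgam and Adgre1 were at the floor in both lines. Under a floor at the 60th percentile Cd68 was at least 1.83-fold higher. Csf1r was 1.72-fold higher by the median over its probe sets and 1.56-fold by their mean. The dimmest Csf1r probe set read 6.05 in CMT-93-PM1 and 6.03 in CMT-93. Of 9 fibroblast markers 3 were measured and 0 differed by 2-fold, against 4.42% of measured genes higher and 2.55% lower. The brightest, Col1a2, read 5.34 in CMT-93-PM1 and 5.65 in CMT-93.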
